A study of Mus musculus with 21 samples.

Results

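The let-7 passenger strands are the 3p arms of the let-7 microRNA hairpins, measured here by small RNA sequencing in the left ventricle of the mouse. They were taken as the rows of the deposited count table whose names start with let-7 and end in -3p, joined rows included, with a mean of at least 5 CPM (counts scaled to a common library total) over the Sham libraries. Of 832 microRNAs with a count in any library, 10 rows were let-7 3p arms and 9 met the rule. The lowest row inside the rule was let-7g-3p at 12.2 CPM in Sham, followed by let-7e-3p at 12.7 CPM, and the 1 row outside it was let-7a-2-3p at 1.57 CPM.

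Each of the 21 libraries was made from left ventricle tissue of 1 C57BL/6J mouse. Transverse aortic constriction (TAC), a surgery that loads the left ventricle with pressure, was followed by sildenafil, an inhibitor of phosphodiesterase 5A, in 5 mice (TAC+PDE5A-I), by PF-04449613, an inhibitor of phosphodiesterase 9A, in 6 mice (TAC+PDE9A-I), and by no drug in 5 mice (TAC). Sham surgery without a drug was done in 5 mice (Sham). Both enzymes degrade cyclic GMP. Dosing began 1 week after the operation and lasted 4 weeks for either inhibitor. The labels state neither dose, sex nor age. The tissue is a mixture of heart muscle, vessel, connective and blood cells, so fewer cells of a type and less RNA per cell cannot be told apart.

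A microRNA hairpin is cut by Drosha and Dicer into a short duplex. In let-7 hairpins the 5p arm is usually kept by Argonaute as the guide, and the 3p arm is the passenger strand, most of which is degraded. The guides share 1 seed (bases 2 to 8, which pair with target messages) and are known for holding cells in a differentiated state, while the passenger strands carry other seeds. LIN28 proteins block the maturation of many let-7 hairpins.

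The mature sequences of all 9 rows are shown because the reads of close relatives can be assigned to one another and because the rows moved in opposite directions. Each is written 5′ to 3′ from RefSeq (GRCm38.p6), with the seed in capitals. The joined row let-7a-1-3p/let-7c-2-3p holds reads of 2 hairpins whose passenger strands are identical over 22 bases.
let-7a-1-3p: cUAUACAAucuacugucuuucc
let-7c-2-3p: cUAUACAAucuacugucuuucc
let-7f-1-3p: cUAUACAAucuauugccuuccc
let-7b-3p: cUAUACAAccuacugccuuccc
let-7f-2-3p: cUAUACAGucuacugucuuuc
let-7c-1-3p: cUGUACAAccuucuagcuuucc
let-7d-3p: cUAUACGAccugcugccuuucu
let-7e-3p: cUAUACGGccuccuagcuuucc
let-7g-3p: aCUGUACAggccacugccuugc
let-7i-3p: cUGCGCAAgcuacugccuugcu
The seed UAUACAA was shared by 4 of these strands, those of let-7a-1, let-7c-2, let-7f-1 and let-7b, and each of the others had a seed of its own, which made 7 seeds in all. The 5p arms of let-7a, b, c, d, e, f, g and i all carried the seed GAGGUAG. Over 21 compared positions let-7f-2-3p differed from let-7a-1-3p at 1, the closest pair of non-identical strands, whereas let-7d-3p differed from let-7a-1-3p at 5 of 22. GC content ran from 36.4% in let-7a-1-3p to 59.1% in let-7g-3p and let-7i-3p.

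Several of the hairpins are cut from 1 primary transcript. On the minus strand of chromosome 13 (GRCm38), Mirlet7d, Mirlet7f-1 and Mirlet7a-1 lie within 2261 bases, at chr13:48536012-48538272, in exons of the long non-coding RNA 6720427I07Rik. Mirlet7c-2 and Mirlet7b lie within 801 bases at chr15:85706603-85707403, in exons of Lncppara. The others lie apart on the same strand as a gene in the GENCODE M21 annotation: Mirlet7c-1 in an intron of Mir99ahg, Mirlet7e in an intron of Spaca6, Mirlet7f-2 in an intron of Huwe1, Mirlet7g in an intron of Wdr82 and Mirlet7i in an exon of the pseudogene D630033A02Rik. The hairpins of let-7d (its 3p row was called higher after sildenafil), let-7a-1 (in the joined row, which was called lower) and let-7f-2 (its 3p row was listed at 0 in that group) are shown with both mature arms in capitals, the 5p arm first.
Mirlet7d: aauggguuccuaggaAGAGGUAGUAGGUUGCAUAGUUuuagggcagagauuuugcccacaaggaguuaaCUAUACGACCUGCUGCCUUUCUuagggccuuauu
Mirlet7a-1: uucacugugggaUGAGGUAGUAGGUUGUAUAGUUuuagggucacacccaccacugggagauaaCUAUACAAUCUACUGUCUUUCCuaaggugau
Mirlet7f-2: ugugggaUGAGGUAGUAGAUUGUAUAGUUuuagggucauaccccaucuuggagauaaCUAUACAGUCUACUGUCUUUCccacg

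The libraries differed in depth and base composition along the groups. Total counts were 1205417 to 3969716 in TAC+PDE5A-I, 1546318 to 7532591 in TAC+PDE9A-I, 5373960 to 8497792 in TAC and 3766517 to 7490436 in Sham. A count of 0 allows up to 3 counts, or 0.353 CPM in the deepest and 2.49 CPM in the shallowest library, for counting error only, because sequenced reads carry no molecular identifier and are not independent. The count-weighted GC content was 46.0% to 48.6% in TAC+PDE5A-I, 44.7% to 47.2% in TAC+PDE9A-I, 44.9% to 45.1% in TAC and 44.6% to 45.0% in Sham. The 4 libraries under 2000000 counts, TAC+PDE5A-I 3, 4 and 5 and TAC+PDE9A-I 5, had 47.2% to 48.6%, against 44.6% to 46.0% in the other 17, and they scored highest on a first principal component with 50.3% of the variance. Markers matched the labelled tissue, with the neuronal miR-124-3p at 0 in every library. The 4 heart-muscle microRNAs summed to 158400 to 227500 CPM in TAC+PDE5A-I and 85190 to 202200 in TAC+PDE9A-I. The sum was 70070 to 145800 in TAC and 137200 to 158200 in Sham. TAC+PDE5A-I thus lay above TAC, and its lowest sum only just above the highest of Sham (158400 against 158200 CPM). A sum does not give the direction of each of the 4. One of them, miR-499-5p, had the pattern nearest to that of let-7c-1-3p, a row called lower in TAC+PDE5A-I against TAC. The 2 endothelial markers summed to 1111 to 17660 CPM in TAC+PDE5A-I, 3246 to 42750 in TAC+PDE9A-I, 29590 to 41340 in TAC and 32740 to 37970 in Sham. The 2 smooth-muscle markers summed to 5371 to 48650 CPM in TAC+PDE5A-I, 11990 to 103000 in TAC+PDE9A-I, 75690 to 129300 in TAC and 69160 to 91630 in Sham. The 2 erythroid markers summed to 23.2 to 436 CPM in TAC+PDE5A-I, 54.3 to 1139 in TAC+PDE9A-I, 359.8 to 1029 in TAC and 378 to 1200 in Sham. The sums of the leukocyte and fibroblast lists did not fall in this way. The 4 leukocyte markers summed to 2229 to 3246 CPM in TAC+PDE5A-I and 1918 to 3052 in TAC+PDE9A-I. They had 1198 to 2447 in TAC and 1961 to 2510 in Sham. Of these 4, 1 was at 0 in at least 1 TAC+PDE5A-I library, against 0 of them in any other group. The 2 fibroblast markers summed to 498.8 to 935.8 CPM in TAC+PDE5A-I and 281.9 to 2130 in TAC+PDE9A-I. They had 592.8 to 1353 in TAC and 189.7 to 291.8 in Sham. The part of depth, base composition and cell make-up in the results that follow was not tested, except where a value is given.

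Passenger strands were a small part of the libraries. Together the 9 rows held 0.133% to 0.241% of counts in TAC+PDE5A-I, 0.0991% to 0.163% in TAC+PDE9A-I, 0.0757% to 0.121% in TAC and 0.104% to 0.133% in Sham. Most of these counts belonged to let-7d-3p, which made up 80.4% to 86.9% of them in TAC+PDE5A-I, 58.4% to 86.9% in TAC+PDE9A-I, 54.5% to 65.2% in TAC and 58.2% to 66.4% in Sham. The TAC+PDE5A-I libraries therefore lay above every TAC and every Sham library in this share, and TAC+PDE9A-I 5, at 86.9%, matched the highest of them, while the other TAC+PDE9A-I libraries reached 64.0%. All 9 rows were above 0 in most Sham and TAC libraries, while TAC+PDE5A-I libraries had 5 to 8 of them above 0.

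In Sham hearts the levels, as CPM scaled by the trimmed mean of M values (TMM), fell into a steep order. let-7d-3p came first at 863 ± 101 (SD, n = 5), followed by let-7a-1-3p/let-7c-2-3p at 182 ± 20.2 and let-7b-3p at 160.0 ± 20.4, whose ranges overlapped. let-7f-1-3p was at 43.3 ± 4.47 and let-7i-3p at 24.8 ± 2.67. The lowest were let-7c-1-3p at 16.2 ± 4.37, let-7e-3p at 13.9 ± 2.30 and let-7g-3p at 13.3 ± 1.61, again with overlapping ranges. let-7f-2-3p averaged 59.1 ± 35.3, with 1 library at 0 and the other 4 between 64.9 and 95.4. The rows were chosen by these Sham levels, which are therefore given as a description.

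**Figure D1:**
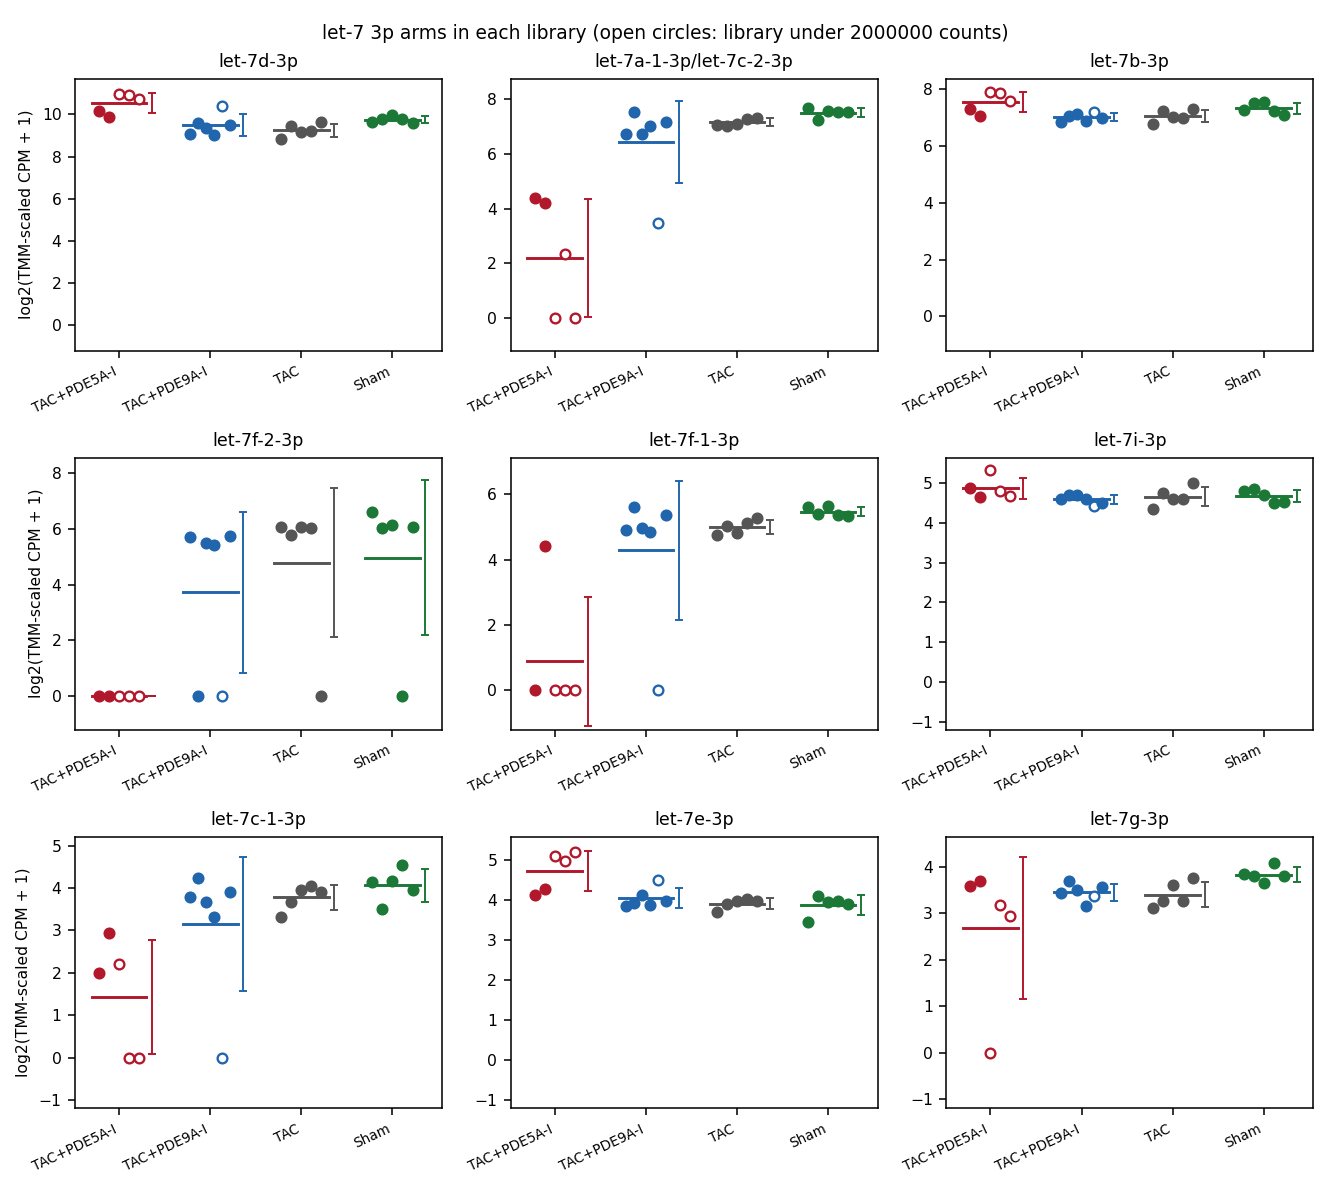
Level of each let-7 passenger strand in each library, as log2(TMM-scaled CPM + 1) on the vertical axis, by group on the horizontal axis. Points are libraries, open circles are the 4 libraries under 2000000 counts, horizontal lines are means and bars to their right are SD (n = 5, 6, 5 and 5). let-7d-3p and let-7e-3p lie above TAC and let-7a-1-3p/let-7c-2-3p, let-7c-1-3p and let-7f-1-3p below TAC in all 5 TAC+PDE5A-I libraries, and let-7f-2-3p is at 0 in all 5.

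Since the Sham values chose the rows, TAC against Sham is given as a description, and nothing is read from its values or counts. It gave log2 fold changes between -0.48 and 0.03, of which 8 of 9 were negative. No test result is given for the 9 rows here, because the rule used the Sham values. Of all 561 microRNAs tested, edgeR's quasi-likelihood test called 2.32%. let-7f-1-3p had 25.9, 31.6, 27.1, 34.1 and 37.3 CPM in TAC and 47.4, 41.2, 48.7, 40.0 and 39.1 CPM in Sham, with a log2 fold change of -0.47 ± 0.93 (SE). It was the only one of the 9 rows whose TAC and Sham ranges did not overlap, where 16.9% of all microRNAs tested had ranges apart. let-7d-3p had 458, 690.0, 569, 587 and 801 CPM in TAC and 788, 866, 1017, 886 and 759 CPM in Sham, a log2 fold change of -0.48 ± 0.26.

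Sildenafil in the overloaded heart came with opposite changes among the passenger strands. In TAC+PDE5A-I against TAC, 3 of the 9 rows rose (let-7d-3p, let-7e-3p and let-7b-3p), 4 were called lower (let-7a-1-3p/let-7c-2-3p, let-7c-1-3p, let-7f-1-3p and let-7f-2-3p) and let-7g-3p and let-7i-3p did not pass. Calls here are those of edgeR's quasi-likelihood test, with p adjusted by Benjamini-Hochberg over 561 microRNAs and a threshold of 0.05. The call of let-7f-2-3p rests on entries of 0 that also occur in TAC and Sham, as given with that row's values. Of all microRNAs tested, 46.3% were called in this comparison, 21.6% higher and 24.8% lower, so a passenger strand that changed stood among many microRNAs that did. The median log2 fold change of the 9 rows was -0.32, that of let-7g-3p, against -0.31 over all microRNAs tested. All 9 rows passed the filter on low counts, let-7f-2-3p only through groups other than TAC+PDE5A-I. The filter asks for enough counts in at least as many libraries as the smallest group holds, here 5. In TAC+PDE5A-I, let-7f-1-3p was at 0 in 4 libraries, let-7a-1-3p/let-7c-2-3p and let-7c-1-3p in 2 each and let-7g-3p in 1. All 4 rows called lower thus passed only with libraries of groups in which they were higher.

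The most abundant passenger strand, let-7d-3p, is the 3p arm of Mirlet7d in the chromosome 13 cluster given above. It had 1146, 945, 1984, 1954 and 1715 CPM in TAC+PDE5A-I, against 458, 690.0, 569, 587 and 801 CPM in TAC. Every sildenafil library lay above every TAC library. The level was 2.49-fold higher, a log2 fold change of 1.32 ± 0.26 (adjusted p = 0.00151, n = 5 each, edgeR), and higher in 5 of 5 libraries. The call held under every alternative run, with its smallest value, 0.76 (adjusted p = 0.0148), when the 4 libraries under 2000000 counts were left out, which leaves TAC+PDE5A-I with 2.

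let-7e-3p, whose hairpin lies in an intron of Spaca6, was far less abundant. It had 16.5, 18.3, 33.3, 30.3 and 35.8 CPM in TAC+PDE5A-I, against 11.98, 14.1, 14.7, 15.3 and 14.7 CPM in TAC, so the groups did not overlap. The log2 fold change was 0.91 ± 0.22 (adjusted p = 0.00394, edgeR). The 3 highest values were those of the shallow libraries, and without all libraries under 2000000 counts the log2 fold change was 0.31 (adjusted p = 0.263). It was 0.52 (adjusted p = 0.0456) without TAC+PDE5A-I 5 alone.

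let-7b-3p, from the chromosome 15 cluster, rose least. It had 156, 132, 238, 231 and 192 CPM in TAC+PDE5A-I, against 109, 150.0, 129.7, 125 and 157 CPM in TAC, and the groups overlapped. The log2 fold change was 0.50 ± 0.17 (adjusted p = 0.0228, edgeR). The call was lost when any 1 library other than Sham 1, 2, 3 or 4, TAC 2 or 5 or TAC+PDE9A-I 1 was left out, with log2 fold changes down to 0.14. It was also lost with the size factors of DESeq2 as scaling (0.31, adjusted p = 0.0955), with no filter (0.25), with the 2 groups fitted alone (0.52, adjusted p = 0.0703) and without the libraries under 2000000 counts (0.11, adjusted p = 0.694).

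The joined row let-7a-1-3p/let-7c-2-3p fell furthest among the rows with counts in the sildenafil group. It had 19.8, 17.7, 0, 4.04 and 0 CPM in TAC+PDE5A-I, against 134, 129.7, 136, 155 and 161 CPM in TAC. In counts these were 66, 79, 0, 6 and 0 in TAC+PDE5A-I, and 681, 964, 947, 1270 and 854 in TAC. All 5 sildenafil libraries lay below all TAC libraries, the deeper ones included. The log2 fold change was -3.99 ± 0.77 (adjusted p = 0.0013, edgeR). The call held under every alternative run, at -2.92 without the libraries under 2000000 counts and at -2.01 (adjusted p = 0.00249) with a correction for GC content. At the median level of TAC, the 2 libraries at 0, TAC+PDE5A-I 3 and 5, would have held 244 and 180 counts.

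let-7f-1-3p comes from the hairpin next to let-7a-1 and shares its seed. It was at 0 in 4 TAC+PDE5A-I libraries and at 20.3 CPM (91 counts) in TAC+PDE5A-I 2, against 25.9 to 37.3 CPM in TAC. The ranges did not overlap. The log2 fold change was -2.71 ± 1.01 (adjusted p = 0.0344, edgeR). The call was lost without TAC 2, 4 or 5 or TAC+PDE5A-I 1, 3, 4 or 5, with the correction for GC content (-1.51, adjusted p = 0.145) and without the libraries under 2000000 counts (-1.58, adjusted p = 0.187). It also missed the threshold with no filter (adjusted p = 0.0502) and with the 2 groups fitted alone (adjusted p = 0.0703). Without TAC+PDE5A-I 2 the group was at 0 throughout.

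let-7c-1-3p, the 3p arm of the hairpin inside Mir99ahg, had 2.99, 6.71, 3.62, 0 and 0 CPM in TAC+PDE5A-I, against 9.03, 11.7, 14.6, 15.6 and 14.1 CPM in TAC. The sildenafil libraries again lay below all TAC libraries, at no more than 30 counts each. The log2 fold change was -2.15 ± 0.73 (adjusted p = 0.022, edgeR), and with the correction for GC content it was -1.28 (adjusted p = 0.0999).

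let-7f-2-3p, from the hairpin in Huwe1 on the X chromosome, was listed either at 0 or at 242 counts or more. All 5 TAC+PDE5A-I libraries were at 0, against 334, 402, 458, 523 and 0 counts in TAC. In Sham it had 551, 345, 337, 0 and 340 counts, and no value between 0 and 242 occurred in any of the 21 libraries. edgeR's quasi-likelihood test over the 4 groups gave an adjusted p = 0.00645 for TAC+PDE5A-I against TAC, and no fold change is read from it. The TAC library at 0, TAC 5, would have held 318 counts at the median level of its group, so the ranges overlapped at 0. Of 250 microRNAs with a median of at least 100 counts over Sham and TAC, 4 were listed at 0 in any of those 10 libraries (let-7f-2-3p, miR-130a-5p, miR-3963 and miR-5100, the last 3 named after their values were seen). Whether an entry of 0 for let-7f-2-3p is a measured absence was not tested, so no fall in level is read from the call. The call was lost without the libraries under 2000000 counts (adjusted p = 0.0733) and with the replicate block and GC correction together (adjusted p = 0.101). It held with the GC correction alone (adjusted p = 0.0364), and the row was not tested with the 2 groups fitted alone.

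The 2 rows that did not pass were let-7g-3p and let-7i-3p. let-7g-3p had 11.1, 12.1, 0, 8.09 and 6.71 CPM in TAC+PDE5A-I, against 7.66 to 12.6 CPM in TAC, with a log2 fold change of -0.32 ± 0.46 and a 95% interval of -1.27 to 0.63. let-7i-3p had 24.1 to 39.1 CPM in TAC+PDE5A-I, against 19.4 to 31.2 CPM in TAC, with a log2 fold change of 0.21 ± 0.17 and an interval of -0.14 to 0.56. Both intervals include 0, and for let-7i-3p the value became 0.71 (adjusted p = 0.00661) with upper-quartile scaling, which moved the median of all microRNAs to 0.15. Over the 9 rows, 5 had ranges that did not overlap between TAC+PDE5A-I and TAC (let-7d-3p and let-7e-3p above, let-7a-1-3p/let-7c-2-3p, let-7c-1-3p and let-7f-1-3p below), where 33.9% of all microRNAs tested had ranges apart, 13.2% above and 20.7% below.

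**Figure D2:**
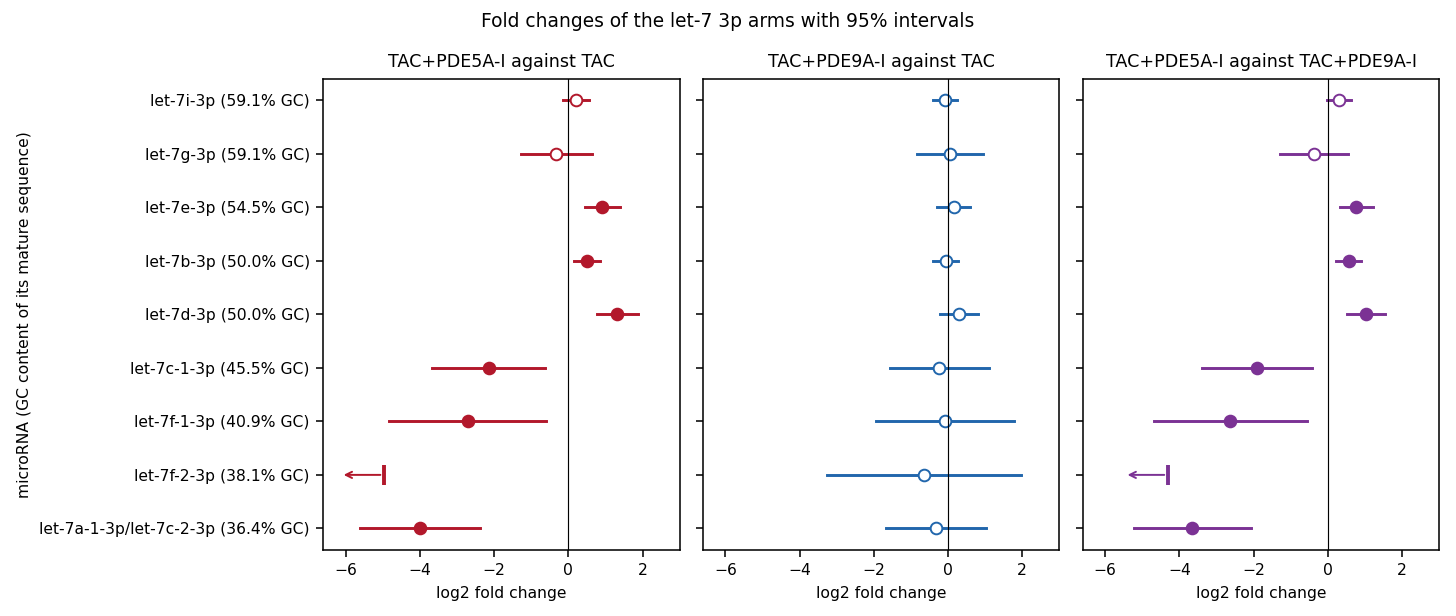
Log2 fold change (horizontal axis) of each passenger strand (vertical axis, sorted by GC content) in the 3 comparisons without Sham. Circles are estimates, filled where the adjusted p is under 0.05, lines are 95% intervals, and ticks with arrows, at -4.96 and -4.30, are where let-7f-2-3p would lie at most if its entries of 0 in all 5 TAC+PDE5A-I libraries are read as counts. The 4 rows called lower have the lowest GC content.

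Among the rows with the seed UAUACAA, let-7b-3p was called higher, a call lost in 14 of 21 fits that left out 1 library. The joined row let-7a-1-3p/let-7c-2-3p, in which the 2 strands cannot be told apart, and let-7f-1-3p, whose call was lost in 7 of those fits, were lower. Within the 2261 bases of the chromosome 13 cluster, let-7d-3p was 2.49-fold higher in TAC+PDE5A-I than in TAC, whereas let-7f-1-3p was 6.55-fold lower and the joined row that includes let-7a-1-3p was 15.8-fold lower. The called rows divided by base composition. The 4 called lower had GC contents of 36.4%, 38.1%, 40.9% and 45.5%, the 3 that rose had 50%, 50% and 54.5%, and the 2 that did not pass had 59.1% each. After a correction of each library for GC content, fitted to the 487 tested microRNAs with a sequence, log2 fold changes were 2.02 for let-7d-3p, 1.16 for let-7b-3p, 1.09 for let-7e-3p, -1.28 for let-7c-1-3p, -1.51 for let-7f-1-3p and -2.01 for let-7a-1-3p/let-7c-2-3p. Every one of these kept its sign, but let-7c-1-3p and let-7f-1-3p no longer passed, and the median over all microRNAs moved to 0.24.

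**Figure D3:**
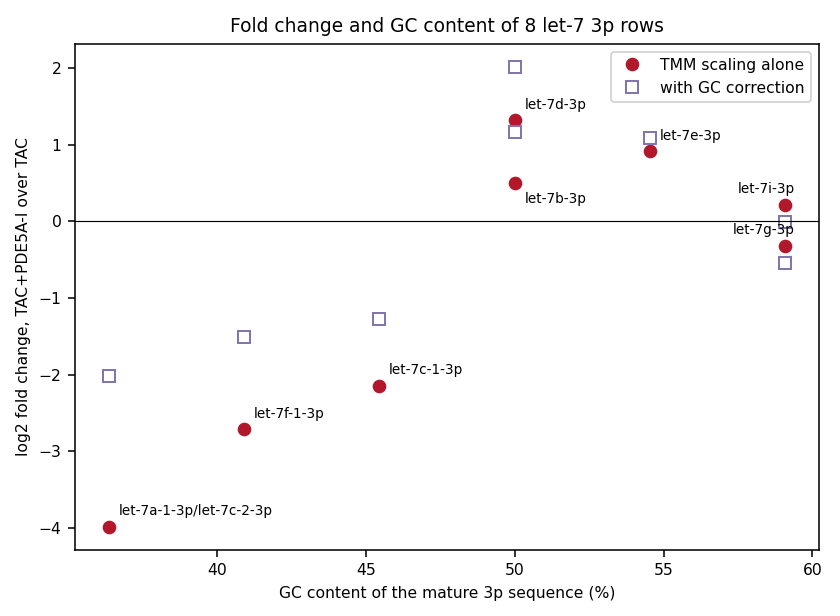
Log2 fold change of TAC+PDE5A-I over TAC (vertical axis) against GC content of the mature strand in percent (horizontal axis), for the 8 rows other than let-7f-2-3p. Filled circles are the fit with TMM scaling alone and open squares the fit with a GC correction; under the correction let-7a-1-3p/let-7c-2-3p moves to -2.01 and let-7d-3p to 2.02.

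The 5p arms, the guide strands, of the let-7 hairpins also split in direction: of 8, 5 rose and 3 fell, the signs of these 3 turning with the GC correction. Of 12 listed rows (8 let-7 5p arms, let-7j, let-7k and both arms of the family member miR-98), 11 were tested, all but let-7k. In TAC+PDE5A-I against TAC, 5 of the 11 rose and 5 fell, where 21.6% of all microRNAs tested were called higher and 24.8% lower. The 5 that fell include both arms of miR-98, which has a hairpin of its own. The 5 that rose were let-7b-5p (1.32 ± 0.32), let-7c-5p (0.99 ± 0.26), let-7e-5p (0.94 ± 0.34), let-7d-5p (0.73 ± 0.20) and let-7a-5p (0.55 ± 0.16), in log2 fold change. The 5 that fell were miR-98-3p (-3.45 ± 0.72), miR-98-5p (-1.82 ± 0.64), let-7f-5p (-1.54 ± 0.52), let-7g-5p (-1.02 ± 0.37) and let-7i-5p (-0.66 ± 0.22). With the GC correction let-7f-5p, let-7g-5p and let-7i-5p changed sign, to 1.18, 1.30 and 1.29, and miR-98-5p to 0.64, so the directions of these 4 depend on the scaling. The joined passenger row of let-7a-1 and let-7c-2 fell although let-7a-5p and let-7c-5p rose, but those 5p arms are also made from Mirlet7a-2 and Mirlet7c-1. Of 11 tested neighbours in the let-7 clusters (both arms of miR-99a, miR-99b, miR-100 and miR-125a, and miR-125b-5p, miR-125b-1-3p and miR-125b-2-3p), 6 rose and 3 fell. The same shares over all microRNAs tested, 21.6% higher and 24.8% lower, stand beside these counts. miR-99b and miR-125a, which are cut from the same primary transcript as let-7e, rose in both arms, with miR-125a-5p at 1.40 ± 0.24 and miR-99b-5p at 0.88 ± 0.19.

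Ratios within a library put the 3p arm beside the 5p arm of its own hairpin. They do not depend on the scaling of libraries, but they can still depend on base composition. The 3p arm had a higher GC content than the 5p arm in let-7b, let-7d, let-7e, let-7g and let-7i. The ratios were not corrected for GC content, so the part of base composition in them was not tested. They were computed for let-7b, let-7d and let-7e, whose 5p arms come from 1 hairpin each, and compared by two-sided exact permutation tests adjusted over 9 tests. For let-7d the 3p arm was a large share of the 5p arm: 38.1%, 45.6%, 59.9%, 68.9% and 67.6% in TAC+PDE5A-I, against 42.2%, 33.7%, 34.0%, 35.2% and 44.1% in TAC. In TAC+PDE9A-I this ratio ran from 27.2% to 43.1% and in Sham from 32.9% to 39.2%. The 3 shallow TAC+PDE5A-I libraries were higher than all others, and the 2 deeper ones lay within or just above the range of TAC. The difference in mean log2 ratio was 0.54 between TAC+PDE5A-I and TAC (exact permutation p = 0.0317, adjusted 0.119) and 0.68 between TAC+PDE5A-I and TAC+PDE9A-I (exact permutation p = 0.013, adjusted 0.117). Neither passed after adjustment. Without the libraries under 2000000 counts they were 0.148 and 0.363. With all let-7 5p arms as denominator they were 1.254 and 1.089 (exact permutation test, adjusted p = 0.039 for both). That denominator sums over hairpins, with let-7j, let-7k and miR-98-5p included, so these are not ratios of the arms of let-7d. Its most abundant member in TAC, let-7f-5p, averaged 15590 CPM there and 5373 CPM in TAC+PDE5A-I, a difference whose sign turned with the GC correction.

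For let-7b the ratio averaged 4.02% ± 1.57 in TAC+PDE5A-I, 5.29% ± 1.52 in TAC+PDE9A-I, 6.25% ± 0.525 in TAC and 7.39% ± 0.401 in Sham (SD). The difference between TAC+PDE5A-I and TAC was -0.71 in log2 (exact permutation p = 0.0397, adjusted 0.119), with log2 fold changes of 0.50 for the 3p arm and 1.32 for the 5p arm. It was -0.300 without the libraries under 2000000 counts and 0.448, the opposite sign, with all let-7 5p arms as denominator. For let-7e the ratio averaged 4.55% ± 3.34 in TAC+PDE5A-I, 3.49% ± 0.841 in TAC+PDE9A-I, 3.55% ± 0.607 in TAC and 4.41% ± 0.962 in Sham, a difference of 0.14 between TAC+PDE5A-I and TAC (exact permutation p = 0.8175). let-7i and let-7g were added after their rows were found to meet the rule, with adjustment over 15 tests. The let-7i ratio averaged 1.196% ± 0.438 in TAC+PDE5A-I, 0.608% ± 0.109 in TAC+PDE9A-I, 0.612% ± 0.179 in TAC and 0.697% ± 0.0276 in Sham, and the log2 difference of TAC+PDE5A-I was 0.95 from TAC (exact permutation p = 0.0317, adjusted 0.119) and 0.92 from TAC+PDE9A-I (exact permutation p = 0.013, adjusted 0.0974). The let-7g ratio averaged 0.599% ± 0.481 in TAC+PDE5A-I, 0.343% ± 0.176 in TAC+PDE9A-I, 0.294% ± 0.0748 in TAC and 0.331% ± 0.0654 in Sham. None of the 15 differences passed after adjustment.

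**Figure D4:**
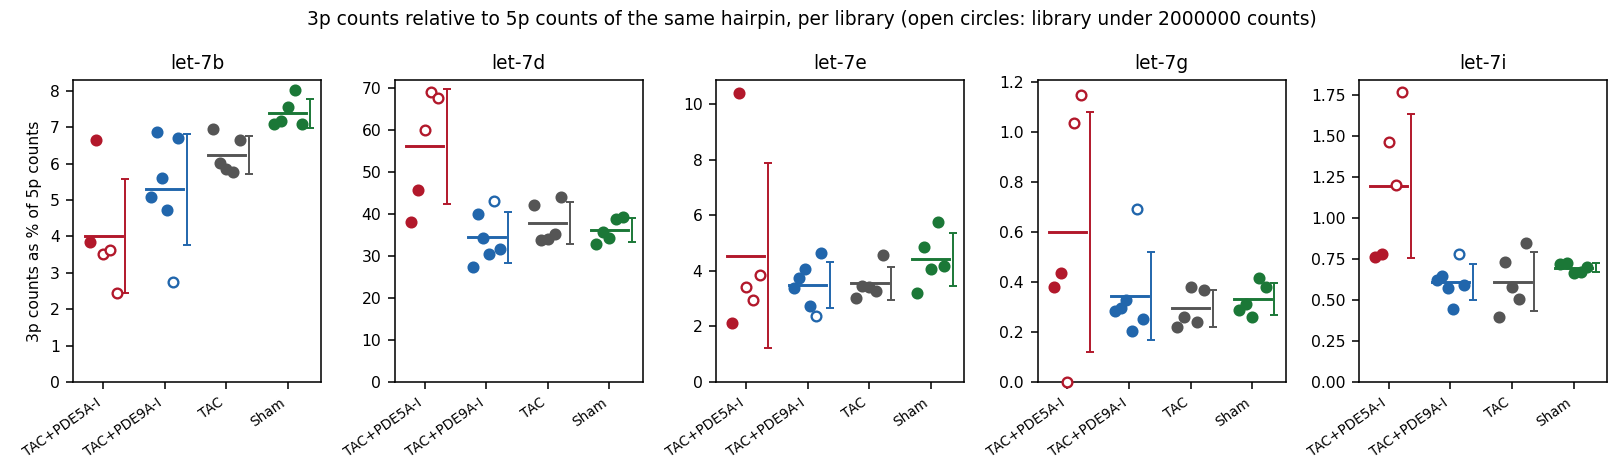
Counts of the 3p arm as a percentage of counts of the 5p arm (vertical axis, from 0) in each library, by group on the horizontal axis, for 5 hairpins. Points are libraries, open circles the 4 libraries under 2000000 counts, lines are means and bars SD (n = 5, 6, 5 and 5); the let-7d ratio is between 59.9% and 68.9% in the 3 shallow TAC+PDE5A-I libraries and at most 45.6% in every other library.

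PF-04449613 gave no call among the passenger strands. In TAC+PDE9A-I against TAC, log2 fold changes ran from -0.64 for let-7f-2-3p to 0.30 for let-7d-3p, and edgeR's quasi-likelihood test called 0 of the 9 rows, where 0% of all 561 microRNAs tested were called. At an unadjusted p under 0.05 there were 0 of the 9 rows and 16 of the 561, and DESeq2 called 2 microRNAs, neither of them a let-7 passenger strand. let-7d-3p ran from 517 to 1370 CPM in TAC+PDE9A-I (median 692), against 458 to 801 CPM in TAC. The 1370 was TAC+PDE9A-I 5, and the other 5 libraries lay between 517 and 773. let-7a-1-3p/let-7c-2-3p ran from 9.998 to 185 CPM in TAC+PDE9A-I (median 117), against 129.7 to 161 CPM in TAC, and again TAC+PDE9A-I 5 was the lowest, with the next at 105. That library was also at 0 for let-7f-1-3p, let-7c-1-3p and let-7f-2-3p. The other 5 TAC+PDE9A-I libraries had 27.5 to 48.0 CPM of let-7f-1-3p and 8.90 to 17.9 CPM of let-7c-1-3p, and both overlapped TAC. let-7f-2-3p was also at 0 in TAC+PDE9A-I 2 and had 242 to 378 counts in the other 4. let-7b-3p ran from 113 to 146 CPM, let-7e-3p from 13.4 to 21.9, let-7i-3p from 20.6 to 25.2 and let-7g-3p from 7.89 to 11.9 in TAC+PDE9A-I, and all 4 overlapped TAC. The 95% intervals were wide for the rows with entries of 0: -1.94 to 1.76 for let-7f-1-3p and -1.58 to 1.102 for let-7c-1-3p, against -0.22 to 0.82 for let-7d-3p and -0.40 to 0.28 for let-7b-3p.

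TAC+PDE5A-I was also compared with TAC+PDE9A-I directly, which tests the difference between the drug effects because both are set against the same TAC libraries. The same 3 rows were higher and the same 4 lower as against TAC, where 34.8% of all microRNAs tested were called, 15.2% higher and 19.6% lower; the comparisons share the TAC+PDE5A-I libraries. Log2 fold changes by edgeR were 1.02 ± 0.25 for let-7d-3p (adjusted p = 0.00802), 0.76 ± 0.21 for let-7e-3p (0.0139) and 0.56 ± 0.16 for let-7b-3p (0.0152). They were -3.65 ± 0.75 for let-7a-1-3p/let-7c-2-3p (adjusted p = 0.00347), -2.63 ± 0.99 for let-7f-1-3p (0.0456) and -1.91 ± 0.71 for let-7c-1-3p (0.043). let-7f-2-3p had an adjusted p = 0.0141 (edgeR), with the same limits on its entries of 0, and lost its call with the GC correction (adjusted p = 0.0691). let-7i-3p differed by 0.30 (95% interval -0.04 to 0.63) and let-7g-3p by -0.37 (interval -1.28 to 0.55). Ranges overlapped for all 9 rows, where 1.96% of all microRNAs tested had ranges apart, and TAC+PDE9A-I 5 lay inside the TAC+PDE5A-I range for let-7d-3p, at 1370 CPM, and for let-7a-1-3p/let-7c-2-3p, at 9.998 CPM. When the 2 drug groups were fitted alone, 0 of the 8 rows tested and 0 of all microRNAs tested were called, let-7f-2-3p not being tested, with adjusted p = 0.0757 for both let-7d-3p (0.89) and let-7a-1-3p/let-7c-2-3p (-3.78). The call of let-7e-3p was lost without Sham 5, TAC+PDE5A-I 3, 4 or 5 or TAC+PDE9A-I 2, and that of let-7b-3p without any of these or TAC 3, TAC+PDE5A-I 1 or TAC+PDE9A-I 4 or 6. The calls of let-7c-1-3p and let-7f-1-3p were lost when any 1 library other than TAC+PDE5A-I 2 or TAC+PDE9A-I 5 was left out.

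The ear tag numbers of the mice fall into the 100s, 500s and 600s, unevenly over the groups. Within the 600s, 3 TAC+PDE5A-I mice were set against 2 TAC mice, with no test. let-7d-3p differed there by 1.46, let-7e-3p by 1.12 and let-7b-3p by 0.64 in mean log2 CPM, let-7c-1-3p by -4.14, let-7f-1-3p by -6.48 and let-7a-1-3p/let-7c-2-3p by -7.46. All 3 of these sildenafil libraries were shallow. Within the 500s, 2 TAC+PDE5A-I mice with deeper libraries were set against 4 TAC+PDE9A-I mice. These 4 include the shallow TAC+PDE9A-I 5 (1546318 counts), so this is not a comparison of deep libraries alone. There let-7d-3p differed by 0.42, let-7e-3p by 0.08, let-7b-3p by 0.11, let-7c-1-3p by -0.13, let-7a-1-3p/let-7c-2-3p by -1.91 and let-7f-1-3p by -1.98. In TAC against Sham, let-7d-3p differed by -0.66 in the 100s and by -0.26 in the 600s. TAC+PDE9A-I against TAC had no such range with at least 2 mice of each group.

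Other microRNAs whose pattern over the 21 libraries was nearest to a passenger strand were sought among 300 with a mean of at least 10 CPM, by the root mean square difference of centred log2 CPM. let-7d-3p was nearest to miR-423-3p (0.205) and miR-328-3p (0.206), against its own spread of 0.594. let-7e-3p was nearest to miR-99b-3p (0.199), from its own cluster, and miR-361-3p (0.207). let-7b-3p was nearest to let-7a-5p (0.198), and let-7i-3p to miR-342-3p (0.174). let-7c-1-3p was nearest to miR-499-5p (0.649), 1 of the 4 heart-muscle microRNAs summed above, against its own spread of 1.82. let-7c-1-3p was called lower in TAC+PDE5A-I, whereas the sum of the 4 lay above TAC there. let-7a-1-3p/let-7c-2-3p was nearest to miR-19b-3p (0.482), against its own spread of 2.73, and let-7f-1-3p to miR-1b-5p (0.879), against 2.76. For let-7f-2-3p the nearest was miR-130a-5p (2.45), another microRNA listed at 0 in some Sham or TAC libraries, which leaves most of its own spread of 3.58 unmatched.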

How the data were processed

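Mature microRNAs were counted by the authors in 21 left ventricle libraries, and the deposited table gives raw read counts, not normalised; its 1903 named rows were used and 24055 blank lines were left out. Per the labels' protocols, libraries were made with the Illumina TruSeq Small RNA kit from 500 ng of total RNA. The submitters' processing notes list Bowtie 1.1.1, cutadapt 1.8, DESeq 1.26.0 and CASAVA 1.8.4, with no role for any; genome build and microRNA annotation: not given in the sources used here. No value equals 1 and the smallest above 0 is 2.

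Here counts were filtered with filterByExpr by group (minimum count 10, 561 microRNAs kept), scaled by TMM and fitted with edgeR 4.0.16 (R 4.3.3, limma 3.58.1), robust quasi-likelihood, all 4 groups, 17 residual degrees of freedom. The call threshold was 0.05 on p-values adjusted by Benjamini-Hochberg over these 561. TMM-scaled CPM are the levels given; SE is the log2 fold change over the root of F; intervals cover 95%. Bounds use 3 counts per library. Arm ratios, with 0.5 added to both counts, were tested in scipy 1.17.1. The fit was also run on simulated counts with 1 spread for all microRNAs. These held no shift in base composition between libraries and no rows made to be either at 0 or at many counts. The simulation therefore cannot speak to those limits of the calls. Alternatives were other scalings, no filter, the compared groups alone, a loess GC correction, the replicate number as a block, the range of the ear tag number, DESeq2 1.42.0, each library left out and, chosen after seeing the library totals, libraries under 2000000 counts left out. Named were all members, let-7a-2-3p, the listed guide strands and cluster neighbours, and nearest patterns. Members and lists were chosen with earlier results of these data known. No label states that mice of different groups were paired. Each library is 1 mouse.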

Additional observations from a re-analysis of the deposited data

Results flagged for a closer look

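Sets of libraries (9 rows in 4 groups, 36 in all) were searched for a library far from the others of its group, and 3 held one. let-7f-2-3p in TAC+PDE5A-I, at 0 throughout, could not be examined. Chance gives about 1 in 20 for normally spread values, a rate that need not hold for rows with entries of 0. let-7d-3p was at 1370 CPM in TAC+PDE9A-I 5, far above the other TAC+PDE9A-I libraries. let-7f-1-3p was at 20.35 CPM in TAC+PDE5A-I 2, while the other TAC+PDE5A-I libraries were at 0. let-7f-2-3p was at 0 CPM in TAC 5, while the other TAC libraries held at least 334 counts.

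In edgeR's test of TAC+PDE5A-I against TAC+PDE9A-I, 7 rows were called, let-7f-2-3p among them. The ranges of the 2 groups overlapped in every row. Of 21 fits that left out 1 library, 19 lost the call of let-7c-1-3p and 19 that of let-7f-1-3p. The call of let-7b-3p was lost in 9 and that of let-7e-3p in 5. The log2 differences were 1.02 for let-7d-3p, 0.761 for let-7e-3p, 0.561 for let-7b-3p, -1.91 for let-7c-1-3p, -2.625 for let-7f-1-3p, -3.652 for let-7a-1-3p/let-7c-2-3p and, only if its entries of 0 are read as counts, at most -4.305 for let-7f-2-3p. When the 2 drug groups were fitted alone, the first 6 of these were not called and let-7f-2-3p was not tested.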

How the results depend on the processing

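Depth limits these results: 3 of the 5 TAC+PDE5A-I libraries hold under 2000000 counts, and rows under about 20 CPM rest on few counts there. No passenger strand that passed changed direction under any alternative. In TAC+PDE5A-I against TAC (3 rows higher, 4 lower, 260 of all microRNAs called), the rows called lower were 2 with the 2 groups fitted alone, in which let-7f-2-3p was not tested, 2 with the GC correction (159 of all) and 1 with the replicate block and GC correction (142). Without libraries under 2000000 counts, 1 was higher and 2 lower (122). Leaving out 1 library gave 2 to 3 higher, 3 to 4 lower and 165 (without TAC+PDE5A-I 3) to 280 of all.

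In TAC+PDE5A-I against TAC+PDE9A-I (3, 4 and 195), 2 were lower with upper-quartile scaling, total-count scaling or the replicate block. With no filter, with the range of the ear tag number (115 of all) or without libraries under 2000000 counts (104), 1 was higher and 2 lower. The lower count was 1 with the GC correction (73) and with the replicate block and GC correction (35), and fits of these groups alone, without let-7f-2-3p, gave 0, 0 and 0. Leaving out 1 library gave 1 to 3 higher, 2 to 4 lower and 72 (without TAC+PDE5A-I 3) to 252 of all; 1 was higher without Sham 5, TAC+PDE5A-I 3, 4 or 5 or TAC+PDE9A-I 2.

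In TAC+PDE9A-I against TAC, of all microRNAs 1 was called with upper-quartile scaling or the GC correction, 2 with DESeq2 or without libraries under 2000000 counts, and 0 to 1 with 1 library left out. In TAC against Sham (13 of all), it was 20 with no filter or the replicate block and GC correction, 98 with the groups alone, 4 with the range of the ear tag number, 48 with DESeq2, 75 without libraries under 2000000 counts and 3 (without Sham 4) to 32 (without TAC+PDE9A-I 5) with 1 left out. In TAC+PDE9A-I against TAC, no passenger strand was called under any alternative.

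The replicate numbers do not pair mice: of 5 pairs per comparison, 1 to 3 deviated together with a correlation over 0.1. With the replicate block let-7b-3p lost its call against TAC (0.373, adjusted p = 0.089), and let-7b-3p, let-7c-1-3p and let-7f-2-3p lost theirs against TAC+PDE9A-I.

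With all 5p arms as denominator the log2 ratio differences were, for TAC+PDE5A-I against TAC, 0.448 (let-7b), 1.254 (let-7d) and 0.835 (let-7e); for TAC+PDE9A-I against TAC, -0.132 (let-7b) and 0.165 (let-7d); and for TAC+PDE5A-I against TAC+PDE9A-I, 0.580 (let-7b, reversed), 1.089 (let-7d) and 0.767 (let-7e), the last 3 and those of let-7d and let-7e against TAC past the threshold. That denominator sums over hairpins and includes miR-98-5p, so these are not ratios of the arms of a single hairpin. With each hairpin's own 5p arm and without libraries under 2000000 counts, the differences of TAC+PDE5A-I from TAC were -0.300, 0.148 and 0.418. They were -0.120 for let-7b in TAC+PDE9A-I against TAC and 0.363 for let-7d between the drugs. Within the ear tag 600s TAC+PDE5A-I differed from TAC by -0.972 (let-7b), 0.730 (let-7d) and -0.184 (let-7e). Within the 500s it differed from TAC+PDE9A-I, the shallow TAC+PDE9A-I 5 included, by 0.097, 0.188 and 0.571. Leaving out 1 library gave -0.910 to -0.551, 0.454 to 0.667 and -0.216 to 0.359 for TAC+PDE5A-I against TAC, -0.384 to -0.120, -0.215 to -0.082 and -0.133 to 0.057 for TAC+PDE9A-I against TAC, and -0.614 to -0.255, 0.600 to 0.813 and -0.173 to 0.402 between the drugs.

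With the GC correction, and with the replicate block and GC correction, guide strands changed sign in TAC+PDE5A-I against TAC: let-7f-5p (1.180 and 1.206), let-7g-5p (1.296 and 1.302), let-7i-5p (1.286 and 1.204) and miR-98-5p (0.643 and 0.588). Against TAC+PDE9A-I they did so for let-7f-5p (0.512 and 0.524), let-7g-5p (0.659 and 0.703) and let-7i-5p (0.801 and 0.752). The cause was not tested.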
